A study of Mus musculus with 6 samples.

Results

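The genes described here are the noncoding RNA genes of mouse bone marrow-derived macrophages whose RefSeq transcripts are all curated as noncoding, that is, every transcript accession of the gene begins with NR_. Of 17951 genes listed in at least 1 library, 1843 had NR_ transcripts only, and 292 of these reached an expected count of at least 20 in each of the 6 libraries. These 292 genes are the members. They were chosen by their level and not by their difference between groups, but the minimum applies to every library, so that a noncoding gene nearly silent in 1 group was left out by the rule. RefSeq's table for GRCm38.p6 lists 212 of them as lncRNA, 56 as transcribed pseudogenes, 10 as protein-coding, 3 as microRNA, 3 as pseudogenes, 1 as a snoRNA and 1 as another RNA, and 6 members had no entry. The label of noncoding RNA therefore does not hold for all of them in the later table, in which Btbd19, Toporsos and 1500011K16Rik (Mtln, a mitochondrial microprotein gene) are among the coding entries.

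The cells were grown from bone marrow of 8-week-old C57BL/6 mice for 4 to 6 days in medium with 10% serum and 10% L929 conditioned medium, which supplies the growth factor M-CSF. In 3 libraries (Pam3CSK4) the cells had received Pam3CSK4, a lipopeptide that activates Toll-like receptors TLR2 and TLR1, for 6 h, and in the other 3 (Pam3CSK4 plus DA) they had also received DA, read as dopamine from the series title, 2 h before the ligand. All 6 libraries were thus stimulated, and the comparison asks how the response to Pam3CSK4 differs when DA is present. The source field spells the ligand of the DA libraries with another final digit, and the titles were followed. Whether the replicates are separate mice or cultures is not stated, so a p-value measures the spread between these libraries, which may be technical.

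Long noncoding RNAs are transcribed and often spliced like messenger RNAs but are not known to be translated into a conserved protein. Some act as RNA in the nucleus, such as the paraspeckle scaffold Neat1, while others matter mainly for what is cut out of them, since many snoRNAs and microRNAs are made from introns or exons of noncoding host genes. In macrophages several of them are induced by Toll-like receptor ligands, the best known being the host gene of miR-155. Antisense transcripts and transcripts that start back to back with a coding gene are further frequent kinds.

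The libraries held between 21337932 and 21518425 expected counts. Levels of single genes are given in CPM (counts per 1e+06, TMM-scaled). Summed levels of marker lists are CPM of the library's total counts without TMM scaling. Lyz2, Csf1r and Cd14 were among the abundant macrophage markers in every library. The summed level of 10 macrophage markers was 28200 to 28600 CPM with Pam3CSK4 and 23100 to 23800 CPM with DA. The 6 stromal markers were also present, summing to 882 to 921 CPM and 835 to 896 CPM, most of it the collagen genes Col1a1 and Col1a2, and of the 5 tested Col1a2 and Pdgfra fell. Markers of T and NK cells summed to 18.7 to 20.5 CPM and 16.8 to 20.4 CPM, mostly Cd4, and those of B cells to at most 1.03 CPM. The part of these cells in the results was not tested. In bulk RNA, fewer cells of a type and less RNA per cell cannot be told apart, which holds for each result that follows. The precursor of the ribosomal RNAs, Rn45s, itself a member, stood at 41.3 ± 2.85 CPM with Pam3CSK4 and 39.8 ± 3.74 CPM with DA (SD, n = 3 libraries per group, as for each mean ± SD given here).

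The mature microRNAs encoded in members are shown first, because their host genes include the member with the largest fall and a member with one of the largest rises. The files do not measure mature microRNAs: they measure the host transcript. The sequences are from RefSeq on GRCm38.p6, 5′ to 3′, with the seed, bases 2 to 8, in capitals. The miR-155 sequence lies in Mir155hg on chromosome 16, at chr16:84714143-84714165 on the plus strand, and the miR-223 sequence lies in F630028O10Rik on chromosome X, at chrX:96242884-96242905 on the plus strand. miR-22 lies in Mir22hg, miR-29b and miR-29c in A330023F24Rik, miR-15a and miR-16 in Dleu2, and the remaining 6 in Mir17hg.
miR-155-5p: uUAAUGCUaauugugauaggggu
miR-223-3p: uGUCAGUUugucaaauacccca
miR-22-3p: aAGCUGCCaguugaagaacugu
miR-29b-3p: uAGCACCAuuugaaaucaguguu
miR-29c-3p: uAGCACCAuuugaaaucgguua
miR-15a-5p: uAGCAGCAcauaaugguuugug
miR-16-5p: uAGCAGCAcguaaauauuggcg
miR-17-5p: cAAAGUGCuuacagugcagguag
miR-20a-5p: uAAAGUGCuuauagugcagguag
miR-18a-5p: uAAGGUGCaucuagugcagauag
miR-19a-3p: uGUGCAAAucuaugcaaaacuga
miR-19b-3p: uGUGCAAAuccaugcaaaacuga
miR-92a-3p: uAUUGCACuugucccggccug

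Seeds are shared within hosts and not between them. The miR-29 pair of A330023F24Rik shares AGCACCA, the pair of Dleu2 shares AGCAGCA, and Mir17hg carries miR-17 and miR-20a with AAAGUGC beside miR-19a and miR-19b with GUGCAAA. The seeds of miR-155, miR-223 and miR-22 each stand alone in this set.

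Mir155hg, the host of the Toll-like receptor-induced microRNA miR-155, fell the most of all 292 members. It spans chromosome 16 from 84703167 to 84715245 on the plus strand (GENCODE vM21, GRCm38). Its expected counts were 730, 589 and 593 with Pam3CSK4 and 63, 64 and 66 with DA, all whole numbers. In CPM these are 35.1, 28.4 and 28.9 against 2.86, 2.88 and 3.0. The groups do not come near each other, and the DA libraries lie close together. The level was 10.6-fold lower with DA (log2 fold change -3.40, SE 0.11, edgeR quasi-likelihood adjusted p = 6.85e-12), while Mrpl39, the nearest coding gene, on the opposite strand, did not pass the test (log2 fold change -0.08, adjusted p = 0.312).

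F630028O10Rik, which holds Mir223, rose. miR-223 is a microRNA of the myeloid lineage that in mice restrains the number and activity of granulocytes. The host stood at 20.2, 21.5 and 18.6 CPM with Pam3CSK4 and at 87.4, 80.4 and 86.9 CPM with DA. Each DA library was thus well above each Pam3CSK4 library, with whole counts of 381 to 446 against 1787 to 1925. The level was 4.22-fold higher (95% interval 3.81 to 4.68, edgeR adjusted p = 6.58e-12). Neutrophils also carry miR-223, and of 7 neutrophil markers 6 were tested: S100a8 rose (63.5 ± 12.6 to 406 ± 14.6 CPM), Camp and Ngp fell, and S100a9 (93.2 ± 9.17 and 99.8 ± 2.9 CPM), Mpo and Elane did not pass the test. Ly6g was removed by the filter on low counts. The summed level of the 7, without TMM scaling, was 204 to 253 CPM with Pam3CSK4 and 592 to 606 CPM with DA. Its part in the result was not tested.

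Mir22hg, a host gene of an abundant microRNA, rose from 88.5, 86.6 and 82.7 CPM to 185, 193 and 187 CPM. The 2 groups of values are tight and far apart, at 2.19-fold (95% interval 2.03 to 2.37, edgeR adjusted p = 2.1e-10). In length-scaled units it is the highest microRNA host of the set, at 47.2 FPKM with Pam3CSK4 and 110 FPKM with DA.

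A330023F24Rik, host of Mir29b-2 and Mir29c, whose family is known for targeting collagen messenger RNAs, rose from a low level of 1.67 ± 0.23 CPM to 5.6 ± 0.23 CPM, or 3.33-fold (edgeR adjusted p = 1.13e-07). Dleu2, host of Mir15a and Mir16-1, had 38, 32 and 27 counts with Pam3CSK4 and 63, 52 and 90 with DA, a rise of 1.98-fold whose 95% interval runs from 1.41 to 2.76 (adjusted p = 0.00154). The DA libraries of Dleu2 spread more than those of the other hosts, but none overlaps the Pam3CSK4 libraries.

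Mir17hg carries the cluster of miR-17 and its relatives, which is known for promoting proliferation. Its values overlapped, with 4.52, 3.42 and 2.83 CPM against 5.0, 4.32 and 4.77 CPM. The difference of 0.39 (log2) passed the threshold narrowly, at an edgeR adjusted p of 0.0462. It did not pass without the first (0.12), the second (0.051) or the third DA library (0.101), nor without the second (0.121) or the third Pam3CSK4 library (0.199), nor with DESeq2's Wald test (0.164), DESeq2's size factors (0.0571), no filter on low counts (0.0858) or limma on log2(FPKM + 1) with no filter (0.0727). 3110039I08Rik (Mir100hg in RefSeq), host of Mir100, Mir125b-1 and Mirlet7a-2, had 1.55 ± 0.09 and 2.19 ± 0.61 CPM (adjusted p = 0.0587). In all, 10 members hold an annotated microRNA gene named Mir on their strand, of which 6 rose, 2 fell (Mir155hg and Gm38431) and 2 did not pass the test. Among all 12390 genes tested, 32.6% rose and 31.8% fell with DA. The 3 members that are themselves microRNA precursors, Mir703, Mir3064 and Mir8112, did not pass the test. Mir3064 and Mir8112 lie on the same strand within Ddx5 and Krcc1, and their reads cannot be told apart from those of these genes.

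**Figure D1:**
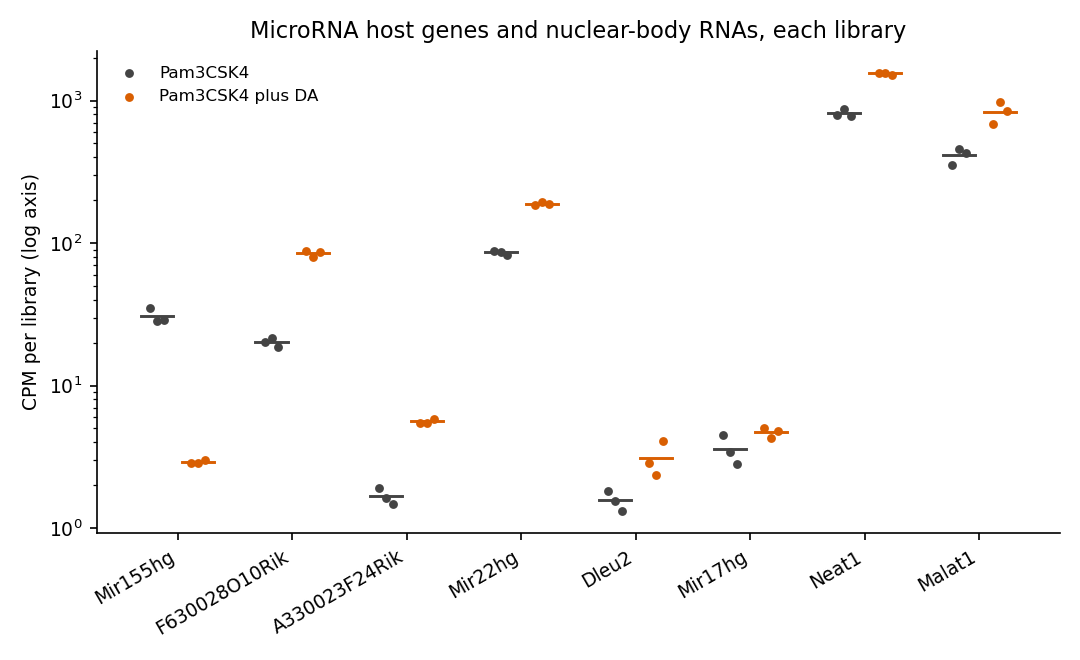
CPM in each library on a log axis for 6 microRNA host genes and for Neat1 and Malat1, grey for Pam3CSK4 and orange for Pam3CSK4 plus DA; points are libraries and short bars are group means. Mir155hg lies near 30.8 CPM without DA and 2.91 CPM with DA, the other genes lie higher with DA, and Mir17hg is the host whose groups overlap.

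Neat1 and Malat1, neighbouring genes on chromosome 19, were the most abundant members, and both rose. Neat1 is known as the RNA scaffold of paraspeckles, nuclear bodies that hold RNA-binding proteins, and Malat1 is a nuclear RNA of speckles. The counts are per gene, so a rise of Neat1 is not assigned to any 1 of its transcripts. Paraspeckles themselves were not measured. Neat1 stood at 798, 873 and 778 CPM with Pam3CSK4 and at 1571, 1569 and 1524 CPM with DA. Malat1 stood at 354, 456 and 427 CPM and at 685, 981 and 840 CPM. Neither gene's groups overlap, and the libraries of Malat1 spread more than those of Neat1. The rise was 1.90-fold for Neat1 (95% interval 1.76 to 2.06, edgeR adjusted p = 1.99e-09) and 2.02-fold for Malat1 (1.72 to 2.39, adjusted p = 1.9e-06). In FPKM, Neat1 went from 246 to 497 and Malat1 from 56.4 to 122. Frmd8, the coding gene nearest to Neat1, did not pass the test (log2 fold change -0.04, edgeR adjusted p = 0.592).

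Together Neat1 and Malat1 made up 20.4% and 10.7% of the counts of the members. All members held 0.517%, 0.536% and 0.499% of a library's counts with Pam3CSK4 and 0.641%, 0.682% and 0.646% with DA, groups that do not overlap. An exact two-sided permutation test over the 6 libraries gave p = 0.1, the smallest value that 3 against 3 libraries allow. Without Neat1 the mean share was 0.438% and 0.496%, and without Neat1 and Malat1 it was 0.398% and 0.41% (exact permutation p = 0.3). Of the difference of 0.139 percentage points between the group means, Neat1 accounts for 0.0813 and Malat1 for 0.0462.

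The messenger RNAs of paraspeckle proteins were mostly lower with DA. Of 12 genes of the list, 10 fell and 1 rose, with a median log2 fold change of -0.35, beside 31.8% and 32.6% of all genes tested that fell and rose and their median of 0.02. Sfpq, an essential paraspeckle protein, went from 321 ± 7.52 to 161 ± 4.27 CPM (log2 fold change -0.99, adjusted p = 5.22e-10), and Pspc1 from 26.9 ± 0.80 to 9.77 ± 0.64 CPM (-1.46, adjusted p = 8.29e-10). Nono fell by 0.32 on the log2 scale, Hnrnph3 rose by 0.24, and Cpsf7 did not pass the test. The authors' length of Neat1, an average over its transcripts that follows their estimated mix, was 3193 to 3195 bases with Pam3CSK4 and 3198 bases with DA. For Tug1, a nuclear and cytoplasmic lncRNA whose level did not pass the test (70.8 ± 3.34 and 66.1 ± 1.04 CPM, adjusted p = 0.146), this length went from between 5731 and 5771 bases to between 5441 and 5523 bases. Of 53 members with more than 1 transcript, the lengths of 13 did not overlap between groups, 5 being longer and 8 shorter with DA. Among all 3559 tested genes with more than 1 transcript and the same minimum, the lengths of 21.2% did not overlap, 6.66% being longer and 14.5% shorter, so the count in the members is near the background.

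Across the 292 members, 96 rose and 51 fell with DA, or 32.9% and 17.5%. Among all genes tested 64.4% passed the test, 32.6% rose and 31.8% fell, so the share that rose was near the background and the share that fell was below it. Of the 10027 genes with coding (NM_) transcripts only and the same minimum count, 33.2% rose and 34.6% fell. A rise or fall of at least 2-fold was called for 18 and 7 members, or 6.16% and 2.4%, against 7.34% and 7.48% of all genes. The set of all genes is not held to the minimum of 20 counts. Of the 10027 coding genes that are, 558 rose and 694 fell by at least 2-fold. The groups did not overlap for 163 members (55.8%, against 68.7% of all genes). The median log2 fold change was 0.15 in the members and 0.02 in all genes.

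The members are low in level, which bears on these shares. Their median level was 2.28 FPKM, against 8.71 FPKM for the coding genes with the same minimum. At a mean of 20 to 50 counts, 24 of 101 members rose and 5 fell, beside 117 and 77 of 554 coding genes. At 50 to 100 counts, 28 of 63 members rose and 4 fell, beside 344 and 180 of 916. At 100 to 500 counts the numbers were 28 and 23 of 83 members and 1279 and 906 of 3270 coding genes, and above 500 counts 16 and 19 of 45 and 1587 and 2307 of 5287. The smaller share of members that fell thus lies below a mean of 100 counts in these data, and the difference was not tested. With a minimum of 50 counts in every library, 153 members remain, of which 51 rose and 45 fell, with 5 and 6 of at least 2-fold. The share over all genes at that minimum was not counted. The size of the balance also depends on the scaling. With upper-quartile factors, which move the median of all genes from 0.02 to 0.14 (log2), 126 members rose and 34 fell, so that 78.8% of the calls were rises in place of 65.3%. With limma on log2(FPKM + 1) among genes of at least 1 FPKM, which changes the unit, the test and the filter and leaves 230 members, 102 rose and 32 fell (76.1% rises).

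**Figure D2:**
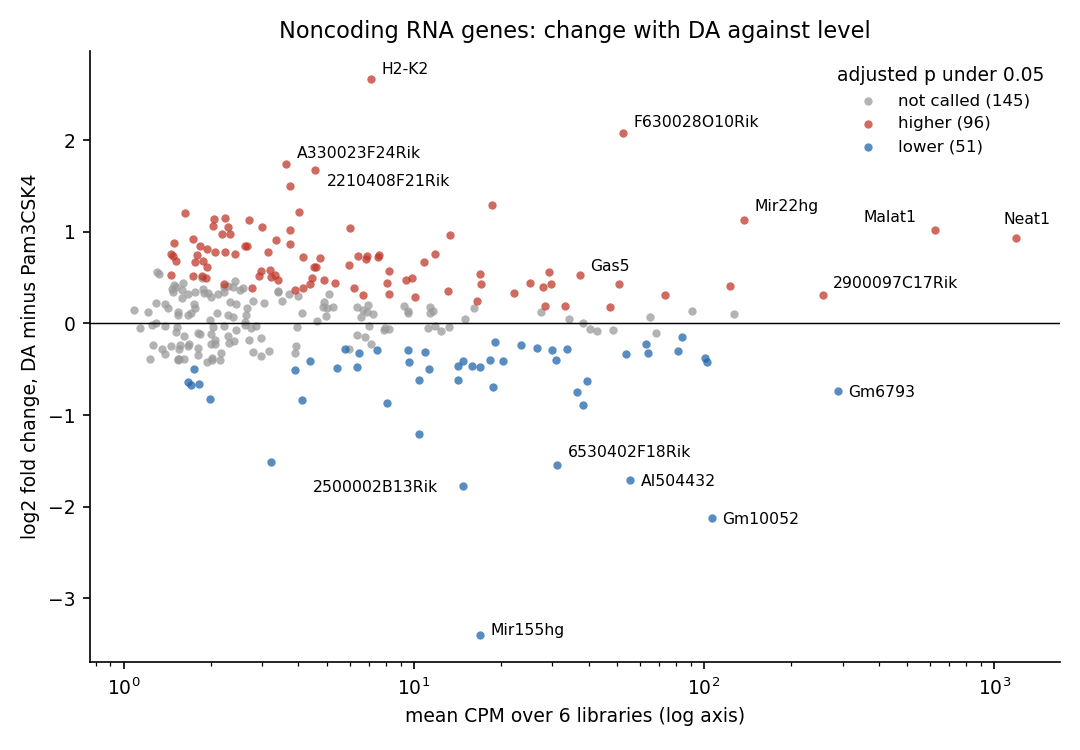
Log2 fold change (DA minus Pam3CSK4) of the 292 members against their mean CPM on a log axis, coloured by the edgeR call at an adjusted p under 0.05. Of the members 96 are called higher and 51 lower; Mir155hg at -3.40 and H2-K2 at 2.68 are the extremes, and Neat1 and Malat1 lie at the right.

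The host genes of snoRNAs rose more often than they fell. snoRNAs guide the modification of ribosomal RNA and are cut from introns, and the spliced exons of their hosts are commonly degraded by nonsense-mediated decay while they are translated. Of 14 members known as snoRNA hosts, 8 rose, 1 fell (Snhg6) and 5 did not pass the test, with a median log2 fold change of 0.38, beside 32.6% and 31.8% of all genes tested and their median of 0.02. Of all 19 members that hold an annotated snoRNA gene on their strand, 10 rose and 1 fell.

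Gas5, named for its rise in growth-arrested cells, had 30.2, 30.3 and 31.5 CPM with Pam3CSK4 and 43.9, 45.5 and 43.1 CPM with DA. The libraries of each group lie within a narrow range. The gene, at positions 161034422 to 161038539 on the plus strand of chromosome 1, rose 1.44-fold (95% interval 1.32 to 1.57, edgeR adjusted p = 3.05e-06), while Zbtb37, which starts back to back with it, fell by 0.78 on the log2 scale. Snhg8 had 92, 107 and 121 counts with Pam3CSK4 and 174, 235 and 163 with DA, a rise of 1.67-fold (adjusted p = 0.00052). Snhg1, the host of a series of box C/D snoRNAs, rose from 8.14 ± 0.80 to 11.5 ± 0.99 CPM, Snhg20 from 5.19 ± 0.12 to 8.47 ± 0.32 CPM, Snhg15 from 4.09 ± 0.12 to 5.69 ± 0.47 CPM, and 2410006H16Rik, which holds Snord49a, Snord49b and Snord65, from 6.85 ± 0.80 to 9.31 ± 0.36 CPM. The groups of each of these do not overlap. Epb41l4aos rose the most of the hosts, from 2.65 ± 0.65 to 4.84 ± 0.88 CPM (log2 fold change 0.87, SE 0.18).

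Smaller changes were seen in Snhg3 and Snhg6. Snhg3 rose by 0.32 on the log2 scale (adjusted p = 0.0146), which did not pass without the second DA library (0.0686) or the first Pam3CSK4 library (0.06), or with DESeq2's Wald test (0.0891). Snhg6 fell by 0.29 (adjusted p = 0.0247), which did not pass without the first (0.0915) or the third DA library (0.0823), or without the third Pam3CSK4 library (0.121), nor with upper-quartile factors (0.17), DESeq2's Wald test (0.0689) or any of 3 limma settings on log2 FPKM (0.0612 to 0.132). Snora73b, a snoRNA gene inside Snhg3 whose counts were split with other genes, had 1.19 ± 0.13 and 1.72 ± 0.31 CPM. Its adjusted p of 0.0455 was above the threshold without the first (0.088) or the second DA library (0.18) and without any 1 of the Pam3CSK4 libraries (0.0594 to 0.141), and also with DESeq2's Wald test (0.227) or size factors (0.0508), with no filter on low counts (0.0789) and with the replicate number as a block (0.0563). Snhg4, Snhg5, Snhg7, Snhg12 and Snhg17 did not pass the test, with log2 fold changes from -0.18 to 0.18, although Snhg12 and Snhg17 passed with upper-quartile factors (adjusted p = 0.043 and 0.0325) and under limma on log2(FPKM + 0.1) (0.0102 and 0.0499). The 95% interval of Snhg7 runs from -0.26 to 0.50 and that of Snhg5 from -0.36 to 0.06. 1810032O08Rik, which RefSeq names Snhg16, had 4.51 ± 0.73 and 5.31 ± 0.21 CPM (adjusted p = 0.128). It is not among the 14 hosts counted above, which were chosen by symbol.

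**Figure D3:**
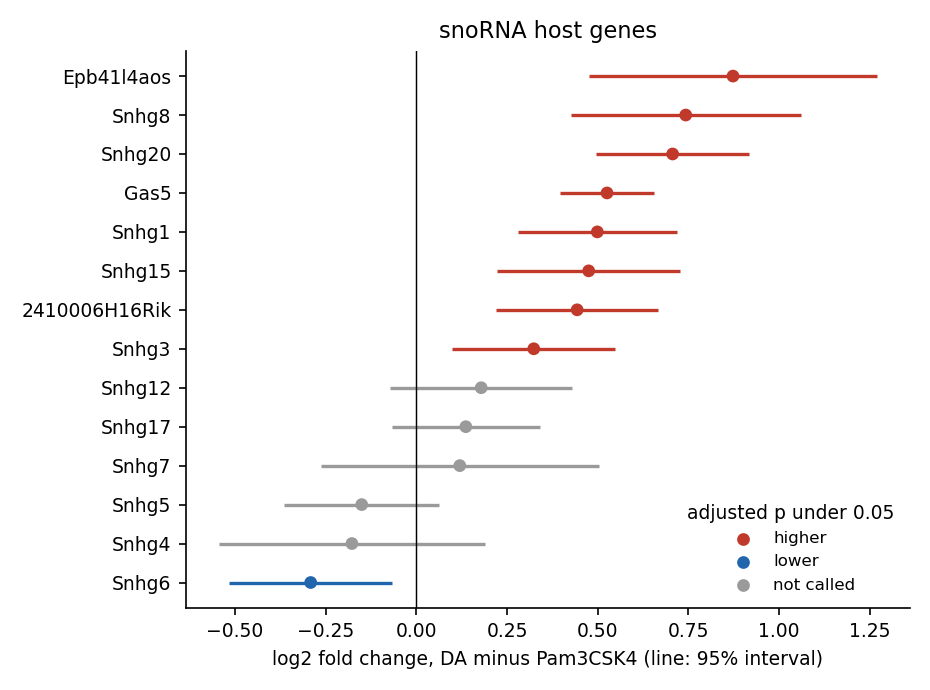
Log2 fold change with its 95% interval for 14 snoRNA host genes, red for those called higher, blue for the gene called lower and grey for those not called. The values run from -0.29 for Snhg6 to 0.87 for Epb41l4aos, and 8 genes lie wholly above 0.

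Transcripts of snoRNA hosts are known for starting at a C followed by a run of pyrimidines, the 5′ terminal oligopyrimidine start, so the starts are shown for hosts with and without that run. Each line gives 30 bases before and 30 bases from the start in RefSeq's table for GRCm38.p6, with the first 10 transcribed bases in capitals. Gas5 is the window at chr1:161035136-161035195 on the plus strand, Snhg8 at chr3:123508307-123508366 on the minus strand, Snhg7 at chr2:26640215-26640274 on the minus strand, 2410006H16Rik at chr11:62602847-62602906 on the plus strand and Snhg20 at chr11:117076753-117076812 on the plus strand.
Gas5: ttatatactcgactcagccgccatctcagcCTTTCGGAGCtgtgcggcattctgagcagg
Snhg8: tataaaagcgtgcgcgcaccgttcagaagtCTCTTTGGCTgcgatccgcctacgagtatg
Snhg7: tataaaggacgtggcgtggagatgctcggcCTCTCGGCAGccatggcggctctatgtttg
2410006H16Rik: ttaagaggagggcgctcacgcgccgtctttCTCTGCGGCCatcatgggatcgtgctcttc
Snhg20: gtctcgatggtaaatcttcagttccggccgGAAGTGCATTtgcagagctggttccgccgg

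A start at C with 4 further pyrimidines (C or T) stood exactly at the listed start in 3 of 13 windows of 11 snoRNA hosts (23.1%), namely in Gas5, Snhg8 and Snhg7, against 2.51% of all 32851 windows in the table. From 5 bases before to 10 bases after the start it stood in 6 of the 13 windows (46.2%, against 18.3% of all windows). Of the windows of hosts that rose, 2 of 8 hold it at the start, and Snhg7, which did not pass the test, holds it too. The window of Snhg20, which rose, has none. Gas5 has another RefSeq window, at chr1:161034571-161034630, with no such run at or near its start. These matches describe the letters and do not show how the genes are controlled.

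The genes that act on these RNAs were described from lists, whose counts stand beside 32.6% of all genes tested that rose and 31.8% that fell. Of 12 tested genes of snoRNP core proteins, none rose and 5 fell. Fbl, the methyltransferase of box C/D snoRNPs, went from 79.5 ± 2.77 to 58.4 ± 3.65 CPM, and Nhp2l1 from 68.2 ± 2.26 to 46.3 ± 0.99 CPM, while Nop56 (67.8 ± 3.91 and 68.1 ± 5.29 CPM) did not pass the test. Of 15 genes of nonsense-mediated decay, 4 rose and 3 fell: Upf3b went from 10.1 ± 0.56 to 21.2 ± 2.73 CPM and Smg6, its endonuclease, from 14.5 ± 0.58 to 7.14 ± 0.65 CPM. Of 13 microRNA processing genes, 2 rose and 6 fell, the latter including the Argonaute genes Ago1, Ago2 and Ago3, with Ago3 at 45.9 ± 6.84 and 17.1 ± 2.42 CPM. Drosha and Dgcr8, which cut the primary transcript, did not pass the test. Of 18 tested genes of the nuclear exosome and its adaptors, 3 rose and 5 fell, and of 14 tested Integrator genes 1 rose and 7 fell. The medians of these 5 lists lay between -0.19 and -0.07 on the log2 scale, beside 0.02 for all genes.

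Other members that fell by more than 2-fold were clone-named genes. AI504432 on chromosome 3 had 91.8, 79.6 and 84.1 CPM with Pam3CSK4 and 28.5, 25.6 and 24.3 CPM with DA, with whole counts in each library. It fell 3.26-fold (edgeR adjusted p = 1.1e-10). The potassium channel gene Kcna3, 1434 bases away on the same strand, went from 21.8 ± 6.63 to 4.59 ± 0.63 CPM. 2500002B13Rik had 22.2, 22.3 and 23.8 CPM and 6.04, 8.28 and 5.64 CPM, and fell 3.42-fold. It starts back to back with Sap30, a subunit of a histone deacetylase complex, which fell as well (99.0 ± 2.68 to 40.1 ± 1.33 CPM). 6530402F18Rik, which overlaps Ntng2 on the same strand, fell 2.92-fold, and E230013L22Rik, back to back with Rab20, fell 2.31-fold. 2010016I18Rik, which overlaps Dennd2d on the opposite strand, fell from 4.79 ± 0.41 to 1.68 ± 0.20 CPM.

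Gm10052, a transcribed pseudogene, had 206, 192 and 122 CPM with Pam3CSK4 and 40.6, 43.3 and 35.2 CPM with DA. It fell 4.37-fold, the third Pam3CSK4 library lying below the other Pam3CSK4 libraries. Its counts were not whole, so that reads had been divided between it and other genes, and it overlaps Ccr9 on the opposite strand. The same division of reads holds for H2-K2, a pseudogene of MHC class I, which rose the most of all members: 1.92, 1.97 and 1.85 CPM with Pam3CSK4 and 11.7, 11.6 and 13.6 CPM with DA, or 6.39-fold (adjusted p = 1.87e-10). Values of both are therefore uncertain in size. Of the 292 members, 78 had whole counts in all 6 libraries within 0.005, and of these 35 rose and 10 fell (44.9% and 12.8%). Of the other 214 members, 61 rose and 41 fell (28.5% and 19.2%). Among all genes tested, 32.6% rose and 31.8% fell.

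Among the members that rose by more than 2-fold were also 2210408F21Rik (2.16 ± 0.30 to 6.94 ± 0.31 CPM, 3.21-fold), AV051173 (1.95 ± 0.31 to 5.55 ± 0.33 CPM) and 9530082P21Rik (10.8 ± 0.44 to 26.5 ± 2.61 CPM). The groups of each are separate. No role is assigned to these 3 genes here.

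Known lncRNAs of macrophages and of general interest gave mostly small differences. Ptgs2os2, known as lincRNA-Cox2 and induced by Toll-like receptor ligands in mouse macrophages, had 6.40, 6.64 and 6.83 CPM with Pam3CSK4 and 7.81, 7.06 and 6.73 CPM with DA, and did not pass the test (95% interval of the log2 fold change -0.10 to 0.34, adjusted p = 0.317). Its neighbour Ptgs2, the inducible cyclooxygenase, fell from 1540 ± 226 to 478 ± 49.9 CPM. AW112010, an lncRNA of immune cells reported to be translated, fell from 60.3 ± 5.57 to 47.7 ± 1.0 CPM (log2 fold change -0.34, SE 0.07, adjusted p = 0.00064). Gm14005, which RefSeq names Morrbid and which in mice limits Bcl2l11 in short-lived myeloid cells, had 20.4 ± 1.05 and 17.7 ± 1.29 CPM with groups that overlap (adjusted p = 0.0393). That call did not pass without the first (0.108) or the third DA library (0.169), without the second (0.105) or the third Pam3CSK4 library (0.114), or with upper-quartile factors (0.396), DESeq2's Wald test (0.0858), a mean of at least 50 counts (0.0626) or 3 limma settings (0.319 to 0.441). Bcl2l11, the apoptosis activator BIM, rose from 93.7 ± 6.72 to 159 ± 4.17 CPM. AI427809, named Mexis in RefSeq and known in mouse macrophages for acting on the cholesterol exporter Abca1, had 1.74 ± 0.14 and 1.33 ± 0.26 CPM (adjusted p = 0.118), while Abca1 fell from 741 ± 97.4 to 185 ± 22.9 CPM.

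2900097C17Rik, named Norad in RefSeq and known for binding Pumilio proteins, rose 1.24-fold from 229 ± 9.41 to 284 ± 0.46 CPM (edgeR adjusted p = 9.06e-05). Of the X-linked lncRNAs, Jpx rose from 1.79 ± 0.01 to 3.03 ± 0.26 CPM (adjusted p = 0.000759). Firre rose by 0.29 on the log2 scale (adjusted p = 0.0231), which did not pass without the first (0.107) or the third DA library (0.0535) or without the second Pam3CSK4 library (0.103), nor with DESeq2's Wald test (0.112), and Ftx did not pass the test. Of the imprinted lncRNAs, Kcnq1ot1 fell from 90.1 ± 6.41 to 73.1 ± 5.29 CPM (adjusted p = 0.00151, and 0.19 under limma on log2(FPKM + 1) with no filter). Peg13 fell from 7.15 ± 0.28 to 5.74 ± 0.32 CPM (log2 fold change -0.32, adjusted p = 0.0138). This did not pass without the third DA library (0.0598), with DESeq2's Wald test (0.0836), with upper-quartile factors (0.097) or under 3 limma settings (0.125 to 0.141). Airn had 1.81 ± 0.21 and 1.53 ± 0.20 CPM and did not pass the test.

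By kind of gene, the median log2 fold change was 0.38 for the 14 snoRNA hosts, 0.35 for 29 other named genes (14 rose, 3 fell), 0.15 for 22 genes with a pseudogene suffix (8 rose, 4 fell), 0.13 for 204 clone- or model-named genes (58 rose, 39 fell) and 0.09 for 15 opposite-strand or overlapping transcripts (4 rose, 3 fell). Over all genes tested the median was 0.02, 32.6% rose and 31.8% fell. RefSeq's classes gave 75 rises and 31 falls among 212 lncRNA genes and 13 rises and 17 falls among 56 transcribed pseudogenes.

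**Figure D4:**
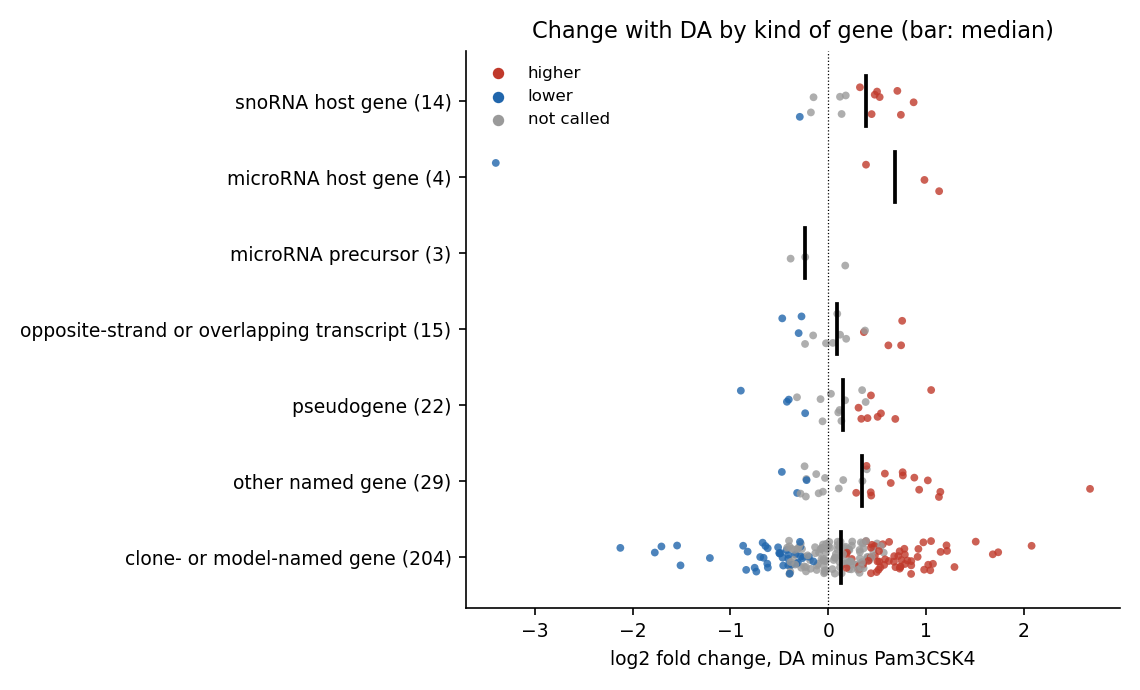
Log2 fold change (DA minus Pam3CSK4) of the members by kind of gene, with red, blue and grey points for genes called higher, lower and not called and a black bar at the median; vertical scatter within a row has no meaning. The median is 0.38 for snoRNA hosts and 0.13 for the 204 clone- or model-named genes; the only snoRNA gene is not drawn.

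Position relative to coding genes was not used by the rule. A gene model of GENCODE vM21 (GRCm38) matched 268 members, through the Ensembl identifier in RefSeq's table or, failing that, by symbol. Each was set beside its nearest tested or overlapping coding gene. Of 54 members that start within 1 kb of a coding gene on the opposite strand, 24 rose and 4 fell, and of 45 others within 10 kb of a coding gene 23 rose and 5 fell. Of 96 members more than 10 kb away 20 rose and 22 fell, and of 23 that overlap a coding gene on the same strand 5 rose and 9 fell. Of 50 that overlap on the opposite strand, 17 rose and 9 fell. These counts stand beside 32.6% of all genes that rose and 31.8% that fell. The groups also differ in level. In the order given, the median of their mean counts was 54, 155, 89, 171 and 59.2, against 387 for all genes tested. The part of level in these shares was not tested.

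A member and its neighbour often did not move together. Both passed the test in 102 pairs, and they moved the same way in 55 (53.9%), against 3103 of 4898 pairs of coding neighbours (63.4%, in which a pair can count in each order). Spearman's rho between the log2 fold changes of member and neighbour was 0.239 over 268 pairs, and 0.211 over 11328 coding pairs, as a description across genes. For overlapping members on the same strand, 9 of 11 pairs (81.8%) moved the same way, against 62 of 82 such coding pairs (75.6%). Reads of overlapping genes may be counted for either, and the labels do not say whether the counting used the strand, so agreement there and on opposite strands is uncertain.

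In 25 head-to-head pairs both genes were called. They moved the same way in 15 (60%) and apart in 10, and in all 10 the noncoding gene rose while the coding gene fell. Of head-to-head pairs of coding genes with both called, 382 of 549 (69.6%) moved the same way. The 167 that moved apart were divided nearly evenly by direction (81 and 86). Only 4 of the 54 head-to-head members fell at all, which limits how many pairs could move apart the other way. Gm11110 rose from 1.64 ± 0.12 to 2.82 ± 0.41 CPM while Tnfsf9, the ligand 4-1BBL, fell from 74.2 ± 2.16 to 21 ± 2.38 CPM. Moving together, 2010001A14Rik had 20, 21 and 20 counts with Pam3CSK4 and 50.1, 47.1 and 54.2 with DA, and its partner Sap30l rose from 10.7 ± 1.59 to 22.5 ± 0.64 CPM. Snhg1 rose with Slc3a2, the heavy chain of amino acid transporters, which rose by 0.59 on the log2 scale. Among other neighbours, 2410006H16Rik rose while Lrrc75a, 77 bases away, fell from 41.5 ± 1.76 to 13.4 ± 0.50 CPM.

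**Figure D5:**
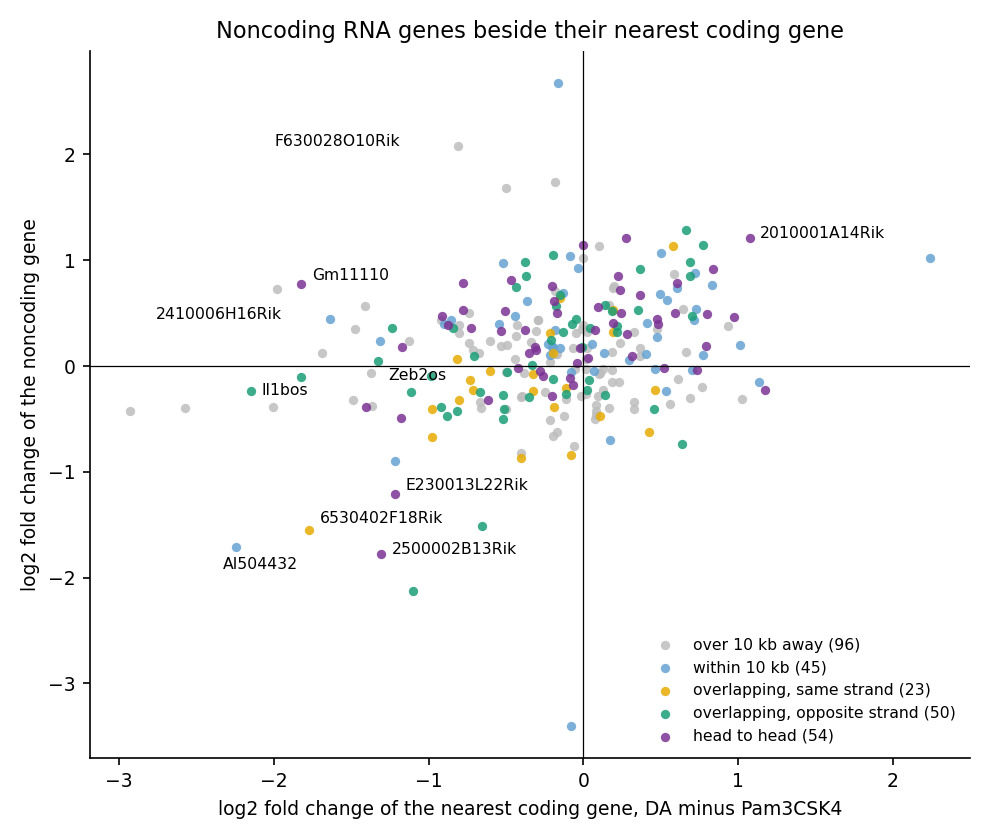
Log2 fold change (DA minus Pam3CSK4) of 268 noncoding genes on the vertical axis against that of the nearest coding gene on the horizontal axis, coloured by arrangement. Points lie in all 4 quadrants; 2500002B13Rik and E230013L22Rik fell with their head-to-head partners, and Il1bos and Zeb2os lie near 0 while their partners fell.

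Several antisense transcripts named after a coding gene differed from it in level and in change. Il1bos, antisense to the cytokine gene Il1b, had 1.83, 1.69 and 1.56 CPM with Pam3CSK4 and 1.27, 1.53 and 1.5 CPM with DA, and did not pass the test (log2 fold change -0.24, 95% interval -0.65 to 0.18, adjusted p = 0.302). Il1b itself fell from 6838 ± 315 to 1542 ± 118 CPM, a log2 fold change of -2.15 that lies outside that interval. Zeb2os had 33.8 ± 2.21 and 34.9 ± 1.62 CPM (95% interval -0.10 to 0.19), whereas Zeb2, a transcription factor of myeloid cells, fell from 406 ± 52.2 to 162 ± 9.44 CPM. Rab10os rose from 5.96, 5.92 and 5.07 CPM to 9.90, 9.54 and 9.0 CPM, a log2 fold change of 0.74, while Rab10, a small GTPase of membrane traffic that it overlaps, fell by 0.44. Toporsos rose by 0.76 (adjusted p = 0.0041, and 0.0621 with DESeq2's Wald test) while Topors fell by 0.20. Fam219aos and Fam219a fell together, by 0.47 and 0.88. Cep83os (0.18, adjusted p = 0.189) did not pass the test, and Cep83 fell by 1.17.

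Promoter windows of RefSeq (GRCm38.p6, 250 bases before to 50 after the start) were found for 183 members, in 199 windows, and were searched on both strands for short motifs. The NF-kB motif (3 G, any 5 bases, then 2 C) stood in 65.8% of 73 windows of members that rose, in 65.4% of 26 windows of those that fell and in 49% of 100 windows of those not called, against 50.8% of all windows. The E-box CACGTG stood in 17.8%, 3.85% and 6% of the same windows, against 7.15% of all. The motif TGACGTCA of cAMP response elements stood in 4.11%, 0% and 2%, against 1.79% of all, the AP-1 motif TGANTCA in 6.85%, 11.5% and 2%, against 7.81%, and the core of antioxidant response elements TGANNNNGC in 47.9%, 50% and 36%, against 41.3%. TGATGNAA stood in 1.37%, 3.85% and 4%, against 3.97%, and TATAAA in 15.1%, 11.5% and 13%, against 13.6%. Motifs this short can occur by base composition alone, and none of these shares was tested.

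The minimum of 20 counts is close for some members. Just inside it, Dancr had 20 to 27 counts over the libraries and Kantr 20 to 48. Just outside, Sp3os had 19.1 counts and E130307A14Rik 19 in their lowest library. Of the 1551 NR_ genes left out by the minimum, 217 were still tested. Their calls are not counted here, because a gene can pass the filter on low counts through the group in which it is high. Of those left out, 13 had at least 20 counts in all 3 Pam3CSK4 libraries and 43 in all 3 DA libraries.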

How the data were processed

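RNA of 6 mouse macrophage libraries was sequenced on a BGISEQ-500, per the labels. Per the submitters' processing notes, the tools include Bowtie2 2.2.5 and the build was GRCm38.p5. Which program estimated the counts is not given in those notes. The deposited files hold an expected count per gene, which per the file headers is the authors' estimate of its reads, and an FPKM value that the authors scaled by length and library, beside a transcript length. Genes under 0.01 FPKM are not in a file and were set to 0.

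Expected counts were rounded. edgeR 4.0.16 (filterByExpr, TMM, quasi-likelihood test, R 4.3.3) compared 3 DA with 3 Pam3CSK4 libraries over 12390 genes, with Benjamini-Hochberg adjustment over all of them and 0.05 as the threshold. Log2 fold changes are DA minus Pam3CSK4, with SEs from the F statistic (size over root F). DESeq2 1.42.0, limma 3.58.1 and other settings were alternatives. The fit was also run on simulated counts in which few genes changed and rises and falls were drawn alike. Many more genes changed in these data, so that run does not check the scaling. For 101 members with a mean of 20 to 50 counts, the median 95% interval of the log2 fold change was ± 0.45.

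Sequences are from RefSeq (GRCm38.p6) and gene models from GENCODE vM21. The members, lists and tests were chosen with earlier results of these data known. Named genes are called members with separate groups and a mean of at least 5 CPM, the 12 largest rises and 12 largest falls, up to 3 each way per kind of gene, and well-known lncRNAs whatever their result. Not all of this set are described above. Among those left out, Bambi-ps1 (log2 fold change -0.89), Gm6793 (-0.74) and U90926 (-0.70) fell, and 2610507I01Rik (1.04) and 1500011B03Rik (0.97) rose. Other genes, such as A330023F24Rik, AV051173, Gm11110 and 2010001A14Rik, were named after their values were seen.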

Additional observations from a re-analysis of the deposited data

How the results depend on the processing

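Of 62 named members under 15 alternatives, 852 of 918 values kept their call and none reversed, 60 lost a call and 6 gained one. Of 53 called, 41 kept their call under every alternative. The members called higher and lower were 96 and 51. They ranged from 85 to 93 and from 41 to 49 when 1 library was left out, those of at least 2-fold from 16 to 20 and from 7 to 8, and all genes called from 3674 to 3900 and from 3591 to 3835. limma on log2(FPKM + 0.1) called 32 members lower, on log2(FPKM + 1) also 32, with 8 at least 2-fold higher, and on log2(FPKM + 1) with no filter 31 lower, with 8 at least 2-fold higher. In the same order, these limma settings called 101, 102 and 103 members higher. The median log2 fold change of all genes in them was 0.097, 0.085 and 0.019, against 0.020 as reported. A pseudocount shrinks changes of low genes, but its part in these counts was not tested. DESeq2's Wald test called 68 higher and 39 lower. A minimum of 50 counts in every library leaves 153 members, of which 51 were called higher and 45 lower, with 5 and 6 at least 2-fold. All genes were not called again at that minimum. Another 2 member sets were chosen after seeing the data. The 78 members with whole counts gave 35 higher and 10 lower, with 5 and 2 at least 2-fold. The 212 lncRNA genes gave 75 higher and 31 lower. Of all genes tested, 32.6% were called higher and 31.8% lower. The difference in the share of counts, 0.139 percentage points, ranged from 0.126 to 0.148 when 1 library was left out, and was 0.0578 without Neat1 and 0.0365 as a share of summed FPKM. With the replicate number as a block, 100 members were called higher and 52 lower. The deviations of same-numbered libraries correlated at 0.297, 0.056 and 0.094, so the numbers were not taken as pairs. Depth limits members with a mean of 20 to 50 counts, whose median 95% interval reaches 1.37-fold to either side of the estimate.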

Other observations

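Some noncoding genes were kept out by the minimum because of their counts in 1 group, which ranged from 0 to just under 20 in most libraries. They passed the filter on low counts through the other group, so no test is given. Mir99ahg, host of the miR-99a cluster, had 54, 54 and 62 counts with Pam3CSK4 and 2, 0 and 2 with DA. A930003A15Rik had 22, 30 and 30 counts and 3, 2 and 4. Gm14023 had 112, 84.2 and 100.2 counts and 18.7, 23.3 and 12.3, in part split with other genes. In the other direction, 6430562O15Rik had 1.14, 3.41 and 0 counts with Pam3CSK4 and 39.5, 24.3 and 35.8 with DA. Mirt2, an lncRNA that in mouse macrophages is induced by lipopolysaccharide and restrains inflammatory signalling, had 5, 6 and 7 counts and 39.9, 41 and 44.9. Hotairm1, a myeloid lncRNA of the HoxA cluster, had 11, 13 and 11 counts and 46, 42 and 30.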
